A study of Mus musculus with 10 samples.

Results

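The F-box genes of meningeal lymphatic endothelial cells were examined in 10 RNA-seq libraries from female C57BL/6 mice aged 3 months. The members were chosen by gene symbol: every gene of the count table named Fbxo, Fbxl or Fbxw followed by a number, which gave 78 of 55401 genes. Of these, 36 were Fbxo genes, 18 were Fbxl genes and 24 were Fbxw genes. The family was taken up because of the counts of 1 member, Fbxo2, in the comparison of the groups, so the values of Fbxo2 in that comparison are given as a description, and nothing is read from its place among the genes called.

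The 5 naive replicates came from mice that were not stressed, and the 5 SCVS replicates from mice that went through sub-chronic variable stress, 6 days on which foot shock, tail suspension and restraint alternated. Each replicate was a pool of the meninges of 3 to 4 mice, from which CD45- CD31+ podoplanin+ cells were sorted after digestion in the presence of actinomycin D, and the RNA was amplified before the libraries were made. The question of the comparison was what the stress changed in the transcripts of these cells. In such bulk samples, fewer cells of a type and less RNA per cell cannot be told apart.

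An F-box protein is the interchangeable part of an SCF ubiquitin ligase. Its F-box binds Skp1, which ties it to the cullin Cul1 and the RING protein Rbx1, and the rest of the protein holds the substrate that is to be marked with ubiquitin. Fbxw proteins hold it through WD40 repeats, Fbxl proteins through leucine-rich repeats, and Fbxo proteins through other domains. In endothelium the best known member is Fbxw7, which takes active Notch to degradation.

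The libraries held 9984743 to 14094155 counts, so the floor of 3 counts used here for detection stood at 0.213 to 0.300 CPM (counts per 1000000 counts of the library). Libraries did not all look alike in their cell type markers. The 6 lymphatic markers summed to 60.4 CPM in naive replicate 1 and 184 CPM in naive replicate 5, against 893 to 2421 CPM in the other 3 naive replicates and 379.9 to 2898 CPM in the SCVS replicates. Naive replicate 1 had 0 counts of Prox1, 2 of Lyve1 and 0 of Pdpn, the marker of the sort, while naive replicate 5 had 1 count of Lyve1 but 843 of Prox1 and 351 of Pdpn. Of the other lymphatic markers, naive replicate 1 had 376 counts of Flt4, 86 of Ccl21a and 165 of Mmrn1. Prox1 had 15 and 2 counts in SCVS replicates 1 and 5. Naive replicate 5 stood apart more by its endothelial markers as a whole: the 4 markers of all endothelium summed to 171 CPM there and to 1662 to 3494 CPM in every other library, and the 4 blood endothelial markers to 292 CPM and to 2172 to 7284 CPM. The 7 neuronal and glial markers were present too, at 165, 523 and 3372 CPM (lowest, median, highest) in naive and 83.2, 279 and 1926 CPM in SCVS replicates, with naive replicate 5 the highest. Mural markers were present in every library, at 741 to 7317 CPM in naive and 367 to 5854 CPM in SCVS replicates. The 5 myeloid markers summed to 0.480, 49.2 and 494 CPM in naive and 133, 218 and 3557 CPM in SCVS replicates, and the 5 fibroblast markers to 50.9, 700.5 and 1318 CPM and to 18.5, 141 and 1499.7 CPM. By edgeR 0 genes of these lists were called. DESeq2 called Ptprc (CD45, the marker excluded in the sort) higher in SCVS (edgeR log2 fold change 7.46, SE 2.64, DESeq2 adjusted p = 0.0801). Ptprc had 27, 0, 0, 113 and 404 counts in SCVS replicates 1 to 5 and at most 1 in naive replicates. It passed the filter of the test, more than 5 counts in at least 3 libraries, only through SCVS replicates, so nothing is read from its call. DESeq2 also called Acta2, a mural marker, lower in SCVS (edgeR log2 fold change -4.04, SE 1.41, DESeq2 adjusted p = 0.0600). Its groups overlapped, with 1526, 506, 47.9, 14.8 and 20.7 CPM in naive replicates 1 to 5 and 1.59 to 84.7 CPM in SCVS replicates. Of the other mural markers, the edgeR log2 fold change was -0.30 (SE 0.79) for Rgs5, -2.17 (SE 2.73) for Myh11 and -1.65 (SE 1.71) for Notch3. The calls over the family and the log2 fold changes of some of the genes described are also given without naive replicates 1 and 5.

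Fbxo2, Fbxo44 and Fbxo6 lie next to each other on chromosome 4 and showed 3 different patterns of counts. For this reason, the sequences just upstream of a RefSeq start of each are shown (GRCm38.p6). Capitals mark the GC box GGGCGG, on either strand; the CCAAT box, CCAAT on either strand, was marked in the same way and was not found in these stretches. Each stretch is read 5′ to 3′ on the strand of its gene, and the bases that match a protein-coding transcript of GENCODE M1 were left out.
Fbxo2, chr4:148160483-148160620, plus strand: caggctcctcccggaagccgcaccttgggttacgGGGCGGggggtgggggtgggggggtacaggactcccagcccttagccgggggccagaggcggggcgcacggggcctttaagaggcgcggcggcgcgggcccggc
Fbxo44, chr4:148160095-148160344, minus strand: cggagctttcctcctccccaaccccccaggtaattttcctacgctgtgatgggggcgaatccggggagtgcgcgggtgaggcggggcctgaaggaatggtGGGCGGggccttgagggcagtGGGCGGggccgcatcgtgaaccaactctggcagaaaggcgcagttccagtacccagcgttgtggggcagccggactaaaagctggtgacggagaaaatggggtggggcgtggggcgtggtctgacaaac
Fbxo6, chr4:148152136-148152263, minus strand: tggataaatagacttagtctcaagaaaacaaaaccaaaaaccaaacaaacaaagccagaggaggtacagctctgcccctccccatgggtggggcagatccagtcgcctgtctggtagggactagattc

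Fbxo44 and Fbxo2 start head to head, with 574 bases between the starts used here. The RefSeq record of Fbxo2 begins at 148160198, before the start used, so the stretch shown for Fbxo2 lies inside its own record. The record of Fbxo44 ends at 148160183, so the stretch shown for Fbxo44 lies partly in its own record and partly in that of Fbxo2. Other starts of these genes were not examined. The 250 bases before the start were 71.6% G and C for Fbxo2 and 64.4% for Fbxo44, with 19 and 17 CG dinucleotides, against 51.2% and 2 CG dinucleotides for Fbxo6. Over the 59 members with a RefSeq promoter, the median number of CG dinucleotides was 13.0, and over all 27025 promoters it was 6.00. The GC box was in 55.9% of the members' promoters and 32.9% of all promoters, and the CCAAT box in 13 of the 59 and 34.5% of all promoters. The TATA box TATAAA, on either strand, was in 0 of the 59 members' promoters and in 13.0% of all promoters. The E-box CACGTG was in 3.39% of the members' and 6.05% of all promoters, TTTGAA, the cell cycle element, in 6.78% and 16.3%, the cAMP response element TGACGTCA in 1.69% and 1.62%, and AGAACA, the half-site of the glucocorticoid receptor, in 6.78% and 16.2%, each on either strand. These are matches of letters, chosen after the values had been seen, and not sites of binding.

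The family was detected very unevenly. Of the 78 members, 14 had more than 3 counts in all 10 replicates, 15 had more than 3 counts in none, and 49 lay between. Without naive replicates 1 and 5, 17 members were above 3 counts in every library and 15 in none. Among the 52 members that passed the filter of the test (more than 5 counts in at least 3 libraries), the 14 made 26.9%, and 38.1% of all 14815 genes tested were above 3 counts in all 10 replicates. The number of members above the floor per replicate was 39.2 ± 6.42 in naive and 43.8 ± 5.17 in SCVS (SD, n = 5 each), and the groups overlapped (naive 30 to 45, SCVS 37 to 49).

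**Figure D1:**
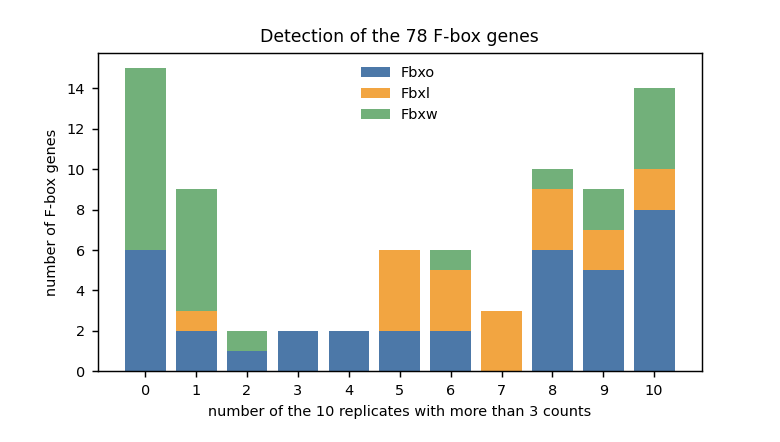
Number of F-box genes (y axis) by the number of the 10 replicates in which they had more than 3 counts (x axis), stacked by Fbxo, Fbxl and Fbxw. The tallest bars stand at both ends, with 15 genes above the floor in no replicate and 14 in all 10.

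The genes without reads were not spread evenly over the subfamilies. None of the 18 Fbxl genes stayed at or below the floor in every replicate, whereas 9 of the 24 Fbxw genes and 6 of the 36 Fbxo genes did. All 9 of these Fbxw genes belong to the series Fbxw13 to Fbxw28, a set of 16 rodent paralogs of which 15 lie on chromosome 9 by RefSeq. Of those 16 genes, 5 had no read in any library, and only Fbxw17, which lies elsewhere, was tested. Such near-identical copies share reads, so the counts of single genes in this cluster are uncertain. Fbxo15, Fbxo24, Fbxo43 and Fbxo48 also had no read in any library.

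The 14 members above the floor everywhere included Fbxo3, Fbxo6, Fbxo7, Fbxo8, Fbxo9, Fbxo11, Fbxo22, Fbxo25, Fbxl5, Fbxw2, Fbxw5, Fbxw7 and Fbxw11. Together the 14 made 59.7% to 73.4% of the CPM of all F-box genes in a replicate. Per kilobase of exon, Fbxo6, which binds misfolded glycoproteins taken back from the endoplasmic reticulum, had the highest mean level of the family at 42.6 CPM per kb (19.7 to 74.0 over the 10 replicates). It was followed by Fbxw5 at 23.7, Fbxw2 at 23.1, Fbxo22 at 22.6 and Fbxo9 at 22.5 CPM per kb, whose ranges over the replicates overlapped one another and that of Fbxo6. The member that took most reads, with no correction for length, changed from library to library. It was Fbxl5 in naive replicates 1 and 5 and SCVS replicates 1 and 4, Fbxw2 in naive replicates 2, 3 and 4, and Fbxo3 and Fbxo9 in 1 SCVS replicate each.

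**Figure D2:**
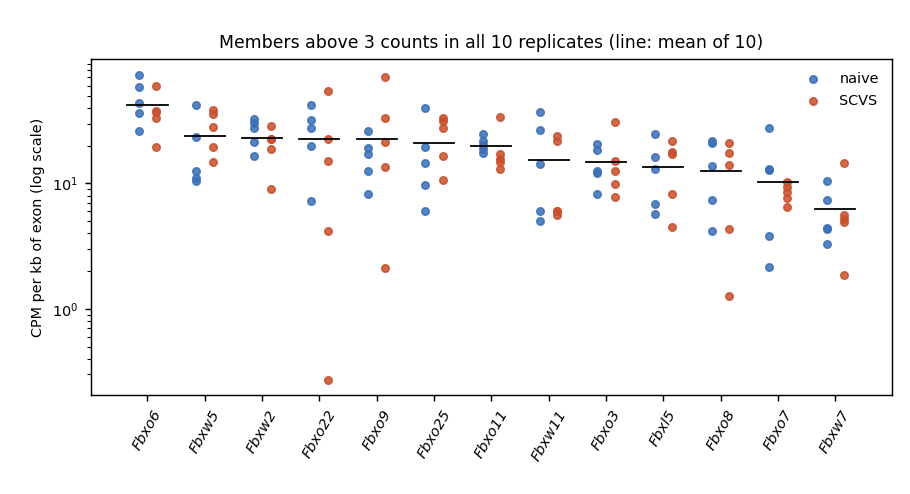
CPM per kb of exon (y axis, log scale) of 13 of the members above 3 counts in all 10 replicates, ordered by mean; each point is 1 replicate, blue for naive and red for SCVS, and the line is the mean of all 10. The ranges of neighbouring genes overlap, and Fbxo22 spans the widest range, down to 0.271 CPM per kb in 1 SCVS replicate.

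Even these members varied widely over the pools. Their coefficient of variation over the 10 replicates ran from 30.4% for Fbxo11, which binds the repressor BCL6, to 85.2% for Fbxo9, with a median of 53.5%, beside a median of 53.0% over the 5639 tested genes that were above the floor everywhere. For the other 38 tested members the median was 121%, beside 132% for the other tested genes. Many members went from near absence to high counts within a group. Among the naive pools, 29 of the 52 tested members (55.8%) spanned from 3 counts or fewer up to 100 counts or more, as did 43.6% of all tested genes. Among the SCVS pools this held for 23 members (44.2%) and 38.1% of all tested genes.

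**Figure D3:**
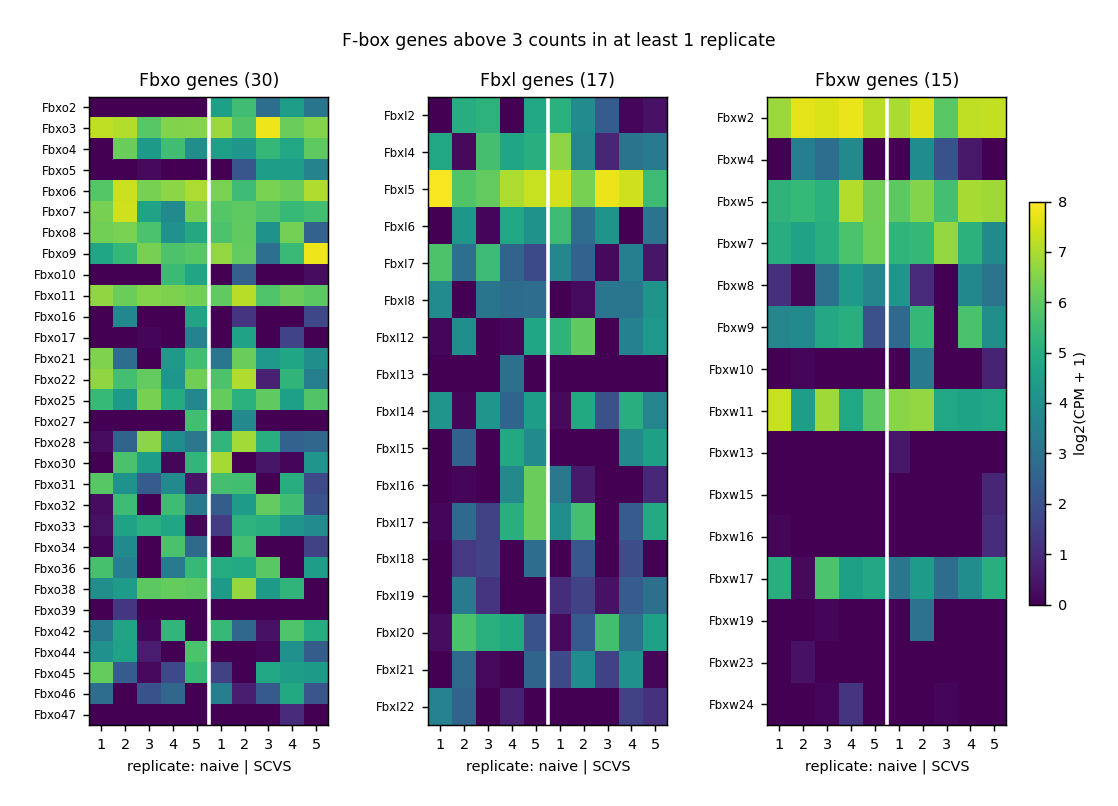
Heat map of log2(CPM + 1) for 62 of the 63 members above 3 counts in at least 1 replicate, by subfamily; columns are naive replicates 1 to 5 and, right of the white line, SCVS replicates 1 to 5. Most genes are dark in some replicates of both groups, and Fbxo2 is dark in all 5 naive replicates and above the floor in all 5 SCVS replicates.

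Between the groups, the summed level of the family overlapped. The CPM summed over all members was 1711 ± 130.3 in naive and 1719 ± 302 in SCVS replicates (SD, n = 5 each). Of the 52 tested members, 25 (48.1%) had a log2 fold change above 0, as had 48.2% of all tested genes, and the median log2 fold change (SCVS over naive) was -0.04 for the members and -0.03 for all genes. For 43 of the 52 members the estimate was smaller than its own standard error.

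With edgeR's quasi-likelihood test and an adjusted p under 0.1, 0 of 14815 genes were called (0%), and so 0 members, the smallest adjusted p being 0.964. At an unadjusted p under 0.05, 286 genes (1.93%) were higher and 174 (1.17%) were lower in SCVS, among them 2 members higher and 0 members lower. DESeq2 with its default settings called 114 of 13998 genes (0.814%) and 2 of 51 members. Fbxo5 was in both counts of 2, and the other gene was Fbxo2. Both genes passed the filter of the test only through SCVS replicates. Every SCVS replicate lay above every naive replicate for 66 genes (0.445%), of which 1 was a member, Fbxo2, and below for 27 genes (0.182%), of which 0 were members. As Fbxo2 led to the choice of the family, its part in these counts is no test of it, and nothing is read from them. Without naive replicates 1 and 5, edgeR called 0 members and DESeq2 called the same 2, among 235 of 12911 genes, and Fbxo2 was again the 1 member whose groups did not overlap.

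**Figure D4:**
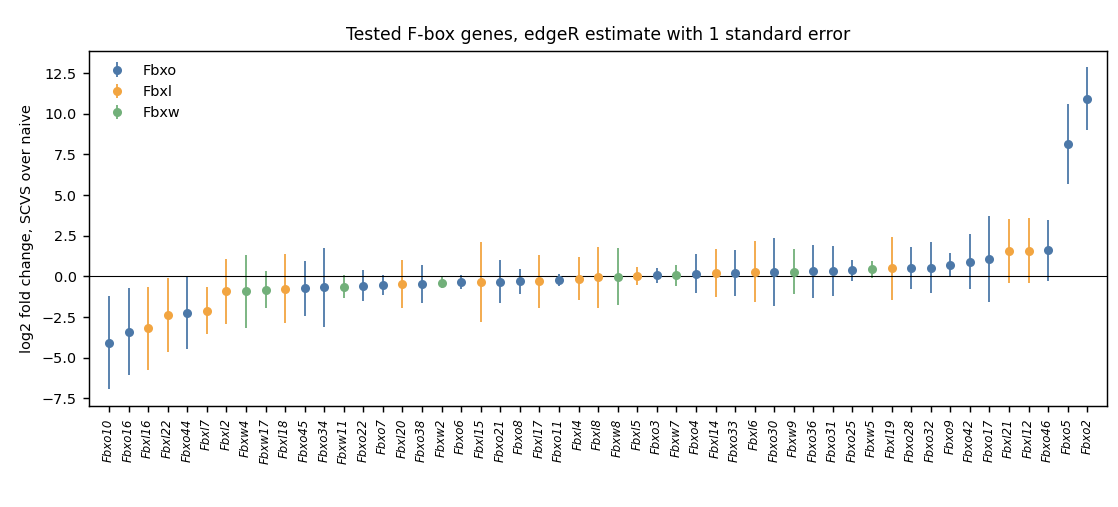
Log2 fold change (SCVS over naive, y axis) with 1 standard error for 51 of the 52 tested members, ordered by value and coloured by subfamily. Fbxo2 and Fbxo5 stand apart at the right; their estimates rest on naive groups with 0 and 2 counts and depend on the prior count of the fit. The other bars mostly cross 0.

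The subgroup with the F-box associated domain held the member whose groups did not overlap. Fbxo2, which binds N-glycans and is known as a brain-enriched member of the pathway that degrades glycoproteins of the endoplasmic reticulum, had 0 counts in all 5 naive replicates. In SCVS replicates 1 to 5 it had 307, 558, 79, 281 and 76 counts, or 20.6 ± 15.9 CPM (SD, n = 5). The groups did not overlap, and the SCVS mean was 86.9 times a floor of 3 counts per naive library. That ratio covers counting error only and is no lower limit of the difference. Among the naive pools, 55.8% of the tested members and 43.6% of all tested genes went from 3 counts or fewer to 100 or more. Fbxo2, with 0 counts in all of them, was not among these, and the part of such dropout in its zeros was not tested. The neuronal and glial marker sum of the same SCVS replicates was 279, 112, 83.2, 1546 and 1926 CPM: in SCVS replicate 2, where Fbxo2 was highest, Snap25, Syt1, Rbfox3 and Tubb3 had 0 counts. Naive replicate 5, with the highest sum of all libraries, had 0 counts of Fbxo2. The myeloid marker sum was 192, 133, 719, 3557 and 218 CPM and the fibroblast marker sum 18.5, 82.5, 157, 141 and 1499.7 CPM in SCVS replicates 1 to 5. The part of any of these cells in the counts of Fbxo2 was not tested.

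Its neighbours did not share this pattern. Fbxo44, a ligase subunit close in sequence that starts head to head with Fbxo2, had 163, 298, 8, 0 and 704 counts in naive and 0, 0, 1, 204 and 41 counts in SCVS replicates. The groups overlapped, with means of 18.5 ± 21.6 and 3.92 ± 6.66 CPM (SD, n = 5; log2 fold change -2.23, SE 2.25). Single libraries moved this value, to -1.33 without naive replicate 5 and to -4.13 without SCVS replicate 4, and it was -0.98 without naive replicates 1 and 5. Fbxo6 was present in every replicate, with 605, 2086, 1131, 1300 and 1713 counts in naive and 1171, 528, 1015, 971 and 1320 counts in SCVS replicates, or 105 ± 41.3 and 82.9 ± 32.0 CPM (SD, n = 5; log2 fold change -0.36, SE 0.42; -0.44 without naive replicates 1 and 5).

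The remaining pair of the subgroup, neighbours on chromosome 7, were seen in few libraries. Fbxo17 was counted 141 times in naive replicate 5, 287 times in SCVS replicate 2, 27 times in SCVS replicate 4 and at most once elsewhere. Fbxo27 gave 621 counts in naive replicate 5, 153 in SCVS replicate 2 and none in any other library, and it was not tested. The same 2 libraries thus held most of the counts of both genes. Naive replicate 5 was also the library with the highest neuronal and glial marker sum, while in SCVS replicate 2 that sum was 112 CPM; the part of those cells in the counts of both genes was not tested.

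**Figure D5:**
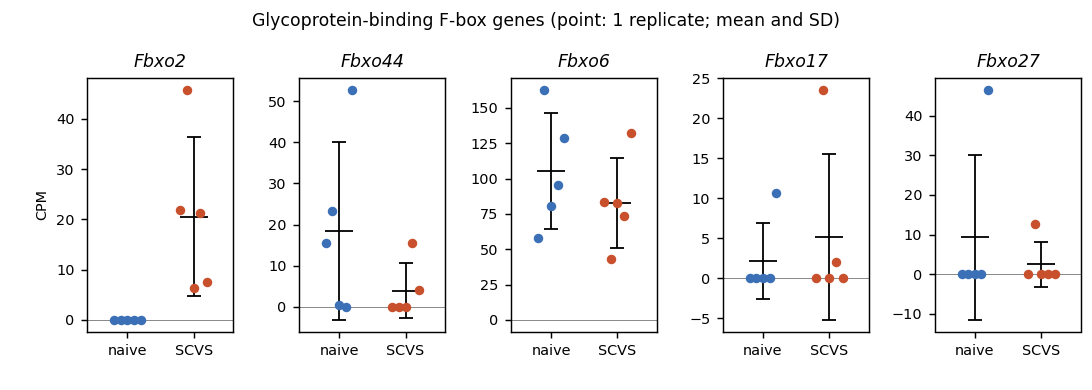
CPM (y axis, a separate scale in each panel) of the 5 genes with the F-box associated domain; each point is 1 replicate, with the mean and SD of the 5 replicates of a group. Only Fbxo2 has groups that do not overlap, and Fbxo17 and Fbxo27 rest on 1 high replicate in each group.

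Among members that act on the cell cycle, Fbxo5 (Emi1), an inhibitor of the anaphase-promoting complex, was near absent from the naive replicates. It had 0, 0, 2, 0 and 0 counts in naive and 0, 42, 256, 276 and 110 counts in SCVS replicates. The groups overlapped only through SCVS replicate 1, and the pooled counts over the pooled library totals gave a ratio of 354, with an exact 95% counting interval of 97.8 to 2933 that leaves out the spread between pools. The mean in SCVS was 11.2 ± 9.62 CPM (SD, n = 5). The log2 fold change by edgeR was 8.16 with SE of 2.45 (adjusted p = 0.964), and the adjusted p by DESeq2 was 0.0158. Fbxo5 passed the filter of the test only through SCVS replicates, the group where it was high. Nothing is therefore read from these adjusted p-values. The log2 fold change was 7.59 without naive replicates 1 and 5. Ptprc, which DESeq2 also called higher, had 27, 0, 0, 113 and 404 counts in SCVS replicates 1 to 5 and at most 1 in naive replicates, and its part or that of myeloid cells in the counts of Fbxo5 was not tested.

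The other F-box genes of the cell cycle group named here had no such split. Cks1b, counted below with the SCF machinery, had 0, 144, 0, 0 and 634 counts in naive and 0, 68, 931, 1211 and 198 in SCVS replicates. Its groups overlapped (log2 fold change 1.72, SE 2.18). Skp2, the F-box protein that takes the inhibitor p27 to degradation, had 0, 85, 367, 1 and 363 counts in naive and 5, 90, 239, 21 and 43 counts in SCVS replicates. Fbxo4, which has been tied to cyclin D1, was at 30.2 ± 28.2 and 33.9 ± 18.6 CPM, and Fbxo31, also tied to cyclin D1, at 18.6 ± 24.1 and 25.7 ± 23.4 CPM (naive and SCVS, SD, n = 5). Without naive replicates 1 and 5, the log2 fold change of Fbxo4 went from 0.18 to -0.40, that of Fbxo31 from 0.34 to 1.19 and that of Skp2 from -0.90 to -0.78. Ccnf (cyclin F), which names the F-box, was above the floor in 3 libraries, with 5 and 123 counts in naive replicates 1 and 2 and 85 in SCVS replicate 2, and was not tested. Fbxl7, tied to the mitotic kinase Aurora A, had 33 to 605 counts in naive and 2 to 169 in SCVS replicates, so the groups overlapped. Its log2 fold change was -2.10 with SE of 1.45 (edgeR, adjusted p = 1.000), and -1.81 without naive replicates 1 and 5.

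Fbxl21, which acts on the cryptochromes of the circadian clock, was at or below 3 counts in 3 naive replicates and 1 SCVS replicate, with 2.19 ± 2.96 and 6.78 ± 7.3 CPM.

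The other leucine-rich repeat members with known substrates showed no separation of the groups. Fbxl5, the iron sensor that controls the iron regulatory proteins, was at 129.8 ± 75.4 CPM in naive and 137.0 ± 71.5 CPM in SCVS (SD, n = 5; log2 fold change 0.04, SE 0.54). Fbxl4, a mitochondrial protein, reached 1350 counts in SCVS replicate 1, while the other SCVS pools had 10 to 145 and the naive pools 2 to 678. Fbxl2 was at or below 3 counts in 2 replicates of each group, and Fbxl20, known from the synapse, in 1 of each. Their log2 fold changes were -0.92 (SE 1.98) and -0.46 (SE 1.46). Leaving out naive replicates 1 and 5 gave a log2 fold change of 0.73 for Fbxl5, -0.03 for Fbxl4 (-0.15 with all), -1.17 for Fbxl2 and -1.15 for Fbxl20.

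Of the WD40 members, 4 were above the floor in all 10 replicates, and none of those named here had groups that stood apart. Fbxw7 was at 42.1 ± 20.7 CPM in naive and 45.4 ± 33.9 CPM in SCVS (SD, n = 5; log2 fold change 0.08, SE 0.65). Fbxw11, a β-TrCP protein, which takes β-catenin and IκB to degradation, was at 77.5 ± 60.3 and 54.9 ± 40.4 CPM (log2 fold change -0.62, SE 0.69). Its paralog Btrc was at 19.7 ± 12.1 and 51.1 ± 31.1 CPM (log2 fold change 1.31, SE 0.70, adjusted p = 1.000 by edgeR), with groups that overlapped. Fbxw2 was at 171 ± 44.6 CPM in naive and 136 ± 48.6 CPM in SCVS, and Fbxw5 was at 63.8 ± 43.0 and 87.4 ± 32.3 CPM. Fbxw8, which works with the cullin Cul7, was at 7.7 ± 7.71 and 7.67 ± 7.47 CPM. The log2 fold change without naive replicates 1 and 5 was 0.36 for Fbxw7, -0.09 for Fbxw11 and 1.08 for Btrc.

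Members known from muscle wasting and from the synapse ranged widely within each group. Fbxo32 (atrogin-1) ranged from 0 to 606 counts in naive and from 30 to 816 counts in SCVS replicates. Fbxo30, the other atrophy gene, had 0, 654, 293, 1 and 500 counts in naive and 1678, 0, 5, 1 and 171 counts in SCVS replicates, so that 1 library held most of its SCVS counts. Fbxo45, which acts at synapses, ranged from 2 to 704 counts in naive and from 0 to 329 in SCVS replicates. When naive replicates 1 and 5 were left out, the log2 fold change went from 0.54 to -0.04 for Fbxo32, from 0.28 to 0.15 for Fbxo30 and from -0.74 to 2.72 for Fbxo45.

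For 5 further members that were present in all replicates the groups overlapped. Fbxo3 was at 104 ± 35.8 CPM in naive and 109.7 ± 65.9 CPM in SCVS (SD, n = 5). Fbxo7, tied to inherited parkinsonism, was at 73.7 ± 63.1 and 52.4 ± 9.22 CPM, and the SCVS replicates were close together while 1 naive replicate reached 2199 counts. Fbxo9 was at 51.8 ± 21.1 and 87.5 ± 81.8 CPM, Fbxo11 at 85.4 ± 11.3 and 78.5 ± 35.2 CPM, and Fbxo22 at 62.0 ± 31.7 and 46.2 ± 51.4 CPM. The log2 fold change of Fbxo22 was -0.57 (SE 0.96), and -0.04 without naive replicates 1 and 5. Fbxo10 and Fbxo16, the other members with the smallest p-values among those lower in SCVS, were above 3 counts in 2 naive replicates each and in 1 and 2 SCVS replicates, and their log2 fold changes were -4.08 (SE 2.87) and -3.39 (SE 2.70). For Fbxo16 this ran from -4.62 without SCVS replicate 5 to -2.09 without naive replicate 5, and it was -2.50 without naive replicates 1 and 5.

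Several members overlap a gene on the opposite strand, and the strand setting of the counting is not given in the sources used here. Reads from shared exons, if there are any, might therefore not be told apart. The overlaps are of whole genes, introns included, and overlap of exons was not examined. In GENCODE M1, Fbxl5 overlaps Bst1, Fbxo11 overlaps Msh6, Fbxo22 overlaps Nrg4, Fbxw5 overlaps C8g, Fbxl2 overlaps Ubp1, Fbxo10 overlaps Polr1e and Fbxw7 overlaps Arfip1. No overlap was annotated there for Fbxo2, Fbxo5, Fbxo6 and Fbxo44.

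Most of the genes that the F-box proteins work with were detected in every library. Of the 40 genes of the SCF machinery in the table, 38 were tested and 26 were above 3 counts in all 10 replicates. The core was at 425 ± 148 CPM in naive and 404 ± 99.5 CPM in SCVS for Skp1a (Skp1), 169 ± 43.8 and 155 ± 77.9 CPM for Cul1, and 337 ± 81.9 and 340.3 ± 76.6 CPM for Rbx1 (SD, n = 5). Of the 38, 17 had a log2 fold change above 0 and 20 below, with a median of -0.04. edgeR called 0 of them, 0 had an unadjusted p under 0.05, DESeq2 called 0, and the groups did not overlap for 0 of them. Over all genes, edgeR called 0% and DESeq2 0.814%. At an unadjusted p under 0.05, 1.93% of all genes were higher and 1.17% lower in SCVS. Without overlap, 0.445% of all genes lay above and 0.182% below. With shares this small, nothing is read from the counts of 0. The 10 tested subunits of the COP9 signalosome, which removes Nedd8 from cullins, divided into 5 above and 5 below 0.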

How the data were processed

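Meningeal cells (CD45- CD31+ podoplanin+) were measured by bulk RNA-seq in 5 naive and 5 SCVS replicates, grouped by their labels. The deposited table holds raw counts per gene that the authors made from their reads; per the labels' processing notes cutadapt 1.9.1, HISAT2 2.0.1, HTSeq 0.6.1 and DESeq2 were used. The study's methods name mm9 as the build and the processing notes GRCm38; 58.8% of the gene IDs are in GENCODE M1 (mm9). Exon lengths for CPM per kb come from M1 (74 of 78 members), coordinates and promoters from RefSeq GRCm38.p6.

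Counts were tested with edgeR 4.0.16 (TMM normalisation, quasi-likelihood F-test, R 4.3.3) after the study's filter, which keeps a gene that exceeds 5 counts in 3 or more of the 10 libraries, with Benjamini-Hochberg adjustment over all 14815 genes and a threshold of 0.1; standard errors are the absolute log2 fold change over the square root of F. CPM are counts per 1000000 of a library's total. DESeq2 1.42.0, limma 3.58.1 (voom), other size factors and filters, a replicate block and each replicate left out were alternatives. The scripts were tested on simulated data with less spread between libraries than these data, so that check does not cover the spread seen here. The biological coefficient of variation was 1.59, and totals of 9984743 to 14094155 counts set the floor of 3 counts. Reads carry no molecular identifiers, so floors and intervals cover counting error only. The p-values measure the spread between pools; which cohort a pool came from is not given in the sources used here.

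Named members were those with groups that did not overlap, those with the F-box associated domain, 20 with well-known roles, the 5 highest per kb, and, for each direction, the 3 of lowest p. The members, lists and this rule were chosen with earlier results of these data known; the promoters and motifs were picked after values and sequences were seen. Protein sequences were not used here. A result of 1 gene is not reported here, in the text or the figures, though the counts over the family include that gene.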

Additional observations from a re-analysis of the deposited data

Results flagged for a closer look

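In 11 of 69 groups of 5 replicates of the named members and of Skp1a, Cul1, Rbx1, Skp2 and Btrc, 1 replicate lay apart. The gap between it and the nearest other, over the range of the group, was above Dixon's critical value of 0.71. That critical value is for normally distributed values. The CPM here were skewed and held many zeros, so how often chance gives such a gap is not known. SCVS replicate 1 was the high one for Fbxl4 (95.8 CPM, next 11.9) and Fbxo30 (119 CPM, next 17.1). SCVS replicate 2 was the high one for Fbxo10 (4.35 CPM, next 0.200), Fbxo11 (140.5 CPM, next 71.2), Fbxo17 (23.6 CPM, next 2.04) and Fbxo27 (12.6 CPM, next 0). SCVS replicate 4 was the high one for Fbxo44 (15.4 CPM, next 4.11). In the naive group, replicate 5 was the high one for Fbxo17 (10.6 CPM, next 0.0716) and Fbxo27 (46.6 CPM, next 0), replicate 1 for Fbxo31 (60.2 CPM, next 15.8), and replicate 3 for Fbxo5 (0.143 CPM, next 0), which is 2 counts and within the floor.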

How the results depend on the processing

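The count of members called by edgeR, 0, was 2 with DESeq2 in its default settings, 2 without Cook's filter and independent filtering, 1 with voom and 2 with DESeq2 without naive replicates 1 and 5; it was 0 to 0 when 1 replicate was left out. The SCF machinery had 0 calls in every alternative run. Members above the floor in every replicate were 14 (14 to 17 with 1 replicate left out), and in none 15 (15 to 17). Of 600 alternative log2 fold changes of 34 named genes, 543 kept their direction; 16 genes kept it throughout. RLE size factors, other filters and DESeq2 turned none. With voom the values that turned were Fbxl2 0.38, Fbxl4 0.26, Fbxo3 -0.21, Fbxo7 0.17, Fbxo30 -1.22, Fbxo31 -0.22, Fbxw7 -0.09, Fbxw8 0.08, Rbx1 0.07 and Skp2 1.29. Same-numbered replicates shared only a number (correlations of their deviations -0.010 to 0.14; naive replicate 3 correlated best with SCVS replicate 1); with the replicate block 0 members were called, and Fbxo3 -0.10, Fbxo30 -2.11, Fbxw7 -0.06, Fbxw8 0.27 and Skp2 0.83 turned. Without naive replicates 1 and 5, an alternative added after seeing the data, Fbxo4 -0.40, Fbxo32 -0.04, Fbxo45 2.72, Cul1 0.15 and Rbx1 0.21 turned. With 1 replicate left out, genes that turned ranged as follows: Cul1 -0.50 to 0.01, Fbxl20 -1.42 to 0.05, Fbxl4 -1.92 to 0.20, Fbxl5 -0.21 to 0.42, Fbxo3 -0.40 to 0.25, Fbxo30 -2.29 to 0.83, Fbxo31 -0.04 to 1.59, Fbxo32 -0.10 to 1.10, Fbxo4 -0.19 to 0.76, Fbxo45 -1.12 to 0.27, Fbxo7 -0.81 to 0.01, Fbxo9 -0.02 to 1.01, Fbxw7 -0.51 to 0.39, Fbxw8 -0.56 to 0.56, Rbx1 -0.14 to 0.10 and Skp1a -0.25 to 0.10. The cause was not tested. Depth limits the members at or under the floor, for which absence cannot be told from low expression.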
